A study of Mus musculus with 20 samples.

Results

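The comparison set CD44+CD8+ T cells from mice given SD-101 together with anti-PD-1 against the same cells from mice given saline. It used 10 of the series' 20 arrays, 5 labelled SD-101+anti-PD-1 (the combination arrays) and 5 labelled Saline-CTRL (the saline arrays). Both groups carried 4T1 tumours, a mouse mammary carcinoma line, in the lung, and the cells were purified from those lungs after treatment through the nose. SD-101 is a ligand of the DNA sensor TLR9. The second agent, anti-PD-1, is an antibody that binds the inhibitory receptor PD-1. The remaining arrays came from mice given SD-101 alone (6) or the combination with a-CD4 (4), and all 20 arrays entered the fit that gave the spread. Apart from that, the SD-101 arrays serve here to place genes found against saline. Strain, sex, age, dose and day of treatment are not given in the sources used here. They also do not say whether the numbered samples are different mice. The p-values rest on the spread between samples, which may be technical. All 17097 genes listed with a probe set of their own were tested, each by the probe set of highest mean over the 20 arrays. The question was what the TLR9 ligand and PD-1 blockade changed together in these cells.

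TLR9 sits in the endosomes of plasmacytoid dendritic cells and B cells and responds to microbial DNA, and its signalling releases type I interferon. Interferon acts on neighbouring cells through the STAT and IRF factors, which switch on antiviral effectors, interferon-inducible GTPases and antigen presentation genes. CD44 marks T cells that have met antigen, which kill through granzymes and perforin and carry PD-1 as a brake. T cells stay in tissue or leave it according to the level of S1PR1, the receptor that follows sphingosine-1-phosphate into lymph and blood, and to the factor KLF2 that drives its gene.

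Markers used to purify the cells were present in both groups. Cd8a, a chain of the CD8 co-receptor, averaged 10.92 ± 0.18 (SD, n = 5) on the combination arrays and 10.45 ± 0.64 (SD, n = 5) on the saline arrays, and Cd44 averaged 9.56 ± 0.10 and 9.49 ± 0.30 (SD, n = 5 each). Cd4 was at 3.08 ± 0.24 and 3.09 ± 0.25. The samples also held RNA of other lung cells: Sftpc, the surfactant gene of alveolar type 2 cells, lay between 12.72 and 13.44 on these 10 arrays, at the top of the measured range.

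The saline arrays were not alike. The mean of the control probe sets for 18S ribosomal RNA was 11.63 and 11.59 on saline arrays 1 and 2 but 10.86, 10.84 and 10.94 on saline arrays 3 to 5, while the combination arrays lay between 11.45 and 11.98. Saline array 2 correlated more closely with the combination arrays (mean r = 0.984 across the 17097 genes, which are not independent) than with the other saline arrays (0.969). For saline array 1 the values were nearly equal, 0.966 and 0.964. Saline array 1 had a mean log2 level of 9.75 over 12 neutrophil genes, where the other saline arrays lay between 3.21 and 3.55 and the combination arrays between 3.29 and 6.32. It also had the lowest mean over 15 T cell identity genes, 8.61 against 9.09 to 9.93 on the other saline arrays and 9.29 to 9.75 on the combination arrays. The gene lists are therefore also given against saline arrays 1 and 2 alone and without them. Fits with the 18S value as a covariate are also given. As the lowest 18S values of these 10 arrays were all on saline arrays, such fits cannot fully tell 18S from treatment. Beyond a fit with the T cell identity score as a covariate, the part of cell makeup in the results was not tested. The median over all probe sets was 3.61 to 3.75 on these 10 arrays, and the size of a difference is uncertain where a group lies below it.

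**Figure D1:**
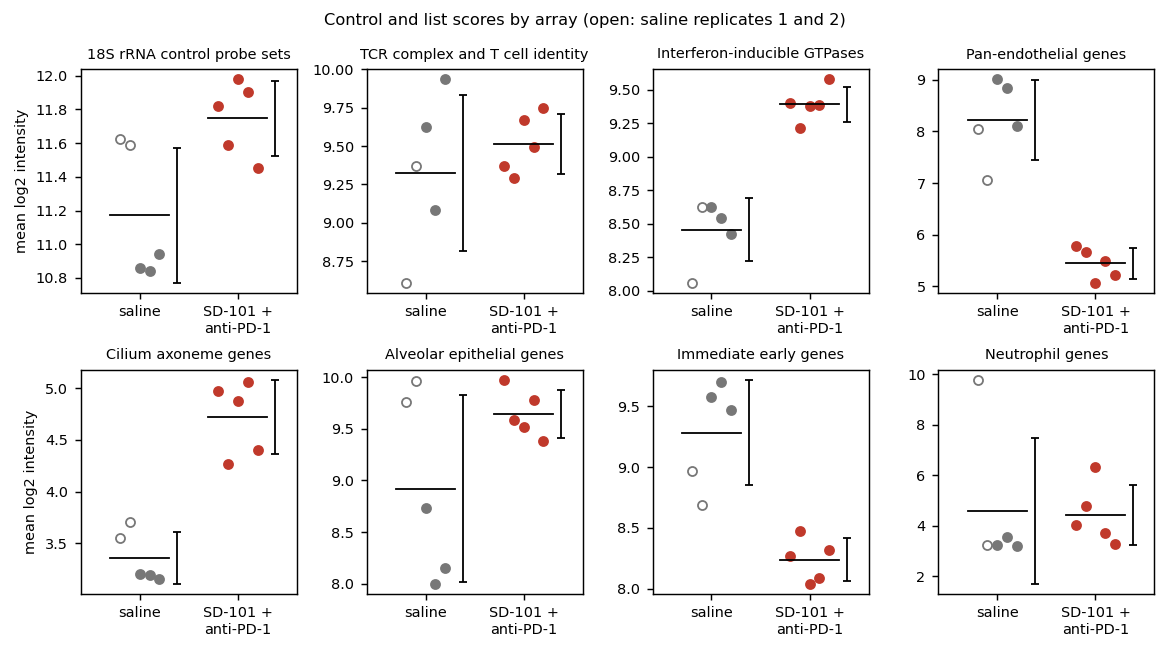
Mean log2 intensity on each of the 5 saline and 5 combination arrays, for the 18S control probe sets and for 7 gene lists (1 point per array, horizontal line the group mean, vertical bar ± SD, open circles saline arrays 1 and 2). On the 18S panel the open circles lie among the combination arrays at 11.63 and 11.59, and on the alveolar panel they reach 9.76 and 9.96. The groups do not overlap on the panels of interferon-inducible GTPases, pan-endothelial genes, cilium axoneme genes and immediate early genes.

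Of the 17097 genes, 962 (5.63%) passed the limma test at an adjusted p under 0.05. Of these, 594 (3.47%) rose and 368 (2.15%) fell, and 3183 genes had an unadjusted p under 0.05. On 575 genes (3.36%) every combination array lay above every saline array, and on 396 (2.32%) every combination array lay below. With only these groups in the fit 398 rose and 330 fell. The count of 962 was 553, 612 and 1531 without saline array 3, 4 or 2, and 618 and 625 without combination array 3 or 4. Against saline arrays 1 and 2 alone 60 genes (0.351%) rose and 18 (0.105%) fell, and against saline arrays 3 to 5 alone 1299 (7.6%) rose and 749 (4.38%) fell. With the 18S value as a covariate 59 rose and 21 fell. Centring each array on its median over the genes tested shifted the middle of all fold changes to -0.11 (log2), from 0.03, and gave 346 rises and 534 falls. Centring on the median of all probe sets (558 and 345) and quantile normalization (599 and 381) kept more rises than falls, so the direction that held more genes turned under 1 of 3 other scalings.

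Genes of the interferon response rose, whichever saline arrays were used. Of the type I interferon-stimulated genes measured (32 in all) 20 rose, none fell and 12 did not pass the test, with a median log2 fold change of 0.89 against 0.03 over all genes. The share of all genes that rose was 3.47%. Of 12 interferon-inducible GTPase genes, whose products attack the vacuoles of intracellular microbes, 10 rose, with a median of 0.95. Against saline arrays 1 and 2 alone 14 and 7 members rose with medians of 1.11 and 1.03, and against saline arrays 3 to 5 alone 17 and 8 with medians of 0.90 and 0.85. With the 18S value as a covariate 13 and 7 rose.

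Promoters of 6 members that rose are shown because they hold the core of the interferon-stimulated response element, to which factors of the IRF family bind. The sequences are RefSeq's on GRCm38.p6, printed 5′ to 3′ on the gene's own strand. Capitals mark each match of GAAANNGAAA on either strand.
Rsad2, chr12:26456538-26456597, minus strand: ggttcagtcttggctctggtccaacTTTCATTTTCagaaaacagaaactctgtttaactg
Ifit1, chr19:34640760-34640838, plus strand: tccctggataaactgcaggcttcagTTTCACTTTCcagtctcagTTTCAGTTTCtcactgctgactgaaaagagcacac
Igtp, chr11:58199497-58199555, plus strand: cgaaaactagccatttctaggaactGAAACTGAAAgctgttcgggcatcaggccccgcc
Tgtp1, chr11:48992289-48992348, minus strand: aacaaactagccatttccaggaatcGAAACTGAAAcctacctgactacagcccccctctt
Irgm1, chr11:48871421-48871475, minus strand: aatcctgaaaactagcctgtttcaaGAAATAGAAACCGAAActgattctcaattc
Irgm2, chr11:58214888-58214947, plus strand: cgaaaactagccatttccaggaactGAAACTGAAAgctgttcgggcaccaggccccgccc

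Ifit1 held 2 separate matches and Irgm1 held 2 that overlap. The match nearest the transcription start ended 14 bases before it in Irgm1, 24 in Igtp, 54 in Irgm2, 67 in Tgtp1, 75 in Ifit1 and 110 in Rsad2. In the 250 bases before the start, GAAANNGAAA was present on either strand in 7 of the 8 GTPase genes with a listed promoter (87.5%) and in 5 of 22 type I interferon-stimulated genes (22.7%), against 936 of 27025 promoters in the table (3.46%). It was in none of 14 pan-endothelial and 29 cilium promoters and in 1 of 22 promoters of immediate early genes. The GTPase genes are related copies that lie in clusters, so their promoters are not independent sequences, and a match is a description of the letters only.

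Rsad2 encodes viperin, an antiviral enzyme of the endoplasmic reticulum. Its level was 8.02, 7.21, 7.95, 7.78 and 8.15 on combination arrays 1 to 5 and 5.31, 5.63, 5.00, 5.42 and 6.03 on saline arrays 1 to 5, a difference of 2.35 ± 0.27 (SE; adjusted p = 0.000193). The lowest combination array was above the highest saline array, and the rise was 2.35 against saline arrays 1 and 2 alone (adjusted p = 0.0164) and 2.34 without them. Ifit1, which encodes a protein that binds viral RNA ends, was at 8.29, 7.71, 8.03, 8.21 and 8.40 against 5.94, 6.37, 6.02, 5.89 and 6.57. It differed by 1.97 ± 0.27 (SE; adjusted p = 0.000274), again with no overlap. Isg20, an exonuclease gene, was at 9.27, 8.95, 9.46, 9.13 and 9.07 against 7.68, 7.998, 7.34, 7.95 and 7.82. Its rise of 1.42 ± 0.16 (SE; adjusted p = 0.000178) had the smallest adjusted p of the list.

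Mx1, the gene of an antiviral GTPase, rose by 2.27 ± 0.36 (SE; adjusted p = 0.000796), and its levels ran from 6.26 to 7.74 on the combination arrays and from 4.01 to 5.48 on the saline arrays. Usp18, which removes ISG15 from proteins and restrains the interferon receptor, was at 9.25, 8.64, 8.70, 8.82 and 9.20 against 6.82, 7.29, 6.81, 6.69 and 7.95. Saline array 5 was the highest saline array for Usp18, as it was for Rsad2, Ifit1 and Mx1, and it was below every combination array. Irf7, the factor that amplifies interferon production downstream of TLR9, rose by 1.45 ± 0.26 (SE; adjusted p = 0.00192), and by 1.88 against saline arrays 1 and 2 alone (adjusted p = 0.0164). Zbp1 (1.48), Rtp4 (1.16), Stat2 (0.87) and Ifih1 (0.86), the RNA sensor MDA5, rose as well. Of the members that did not pass, Oas2 (1.23, adjusted p = 0.0530) and Oasl2 (1.15, adjusted p = 0.0733) overlapped with saline, and Tor3a had the lowest value, -0.17. Ifnb1, the interferon-beta gene, was at 2.70 ± 0.12 and 2.72 ± 0.17 (SD, n = 5 each), near the low end of the scale.

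Iigp1, a GTPase gene of the IRG family, was at 10.71, 10.39, 10.25, 10.68 and 10.65 on the combination arrays and at 8.28, 9.45, 8.59, 8.76 and 7.46 on the saline arrays. It had the largest rise of the GTPase list, 2.03 ± 0.26 (SE; adjusted p = 0.000205). Igtp was at 11.14, 11.05, 11.25, 11.25 and 11.26 against 9.45, 10.23, 10.17, 9.91 and 9.98, a rise of 1.24 ± 0.15 (SE; adjusted p = 0.000193). The combination arrays lay close together on Igtp, while saline array 1 lay below the other saline arrays. Tgtp1 (1.10), Irgm1 (1.01), Irgm2 (1.14) and, among the guanylate-binding protein genes, Gbp10 (1.35), Gbp3 (0.89), Gbp2 (0.71) and Gbp7 (0.53) rose too. Gbp8 (0.66) and Gbp4 (-0.06) did not pass. Probe sets of such closely related genes can pick up each other's transcripts, so the single members are less certain than the family.

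**Figure D2:**
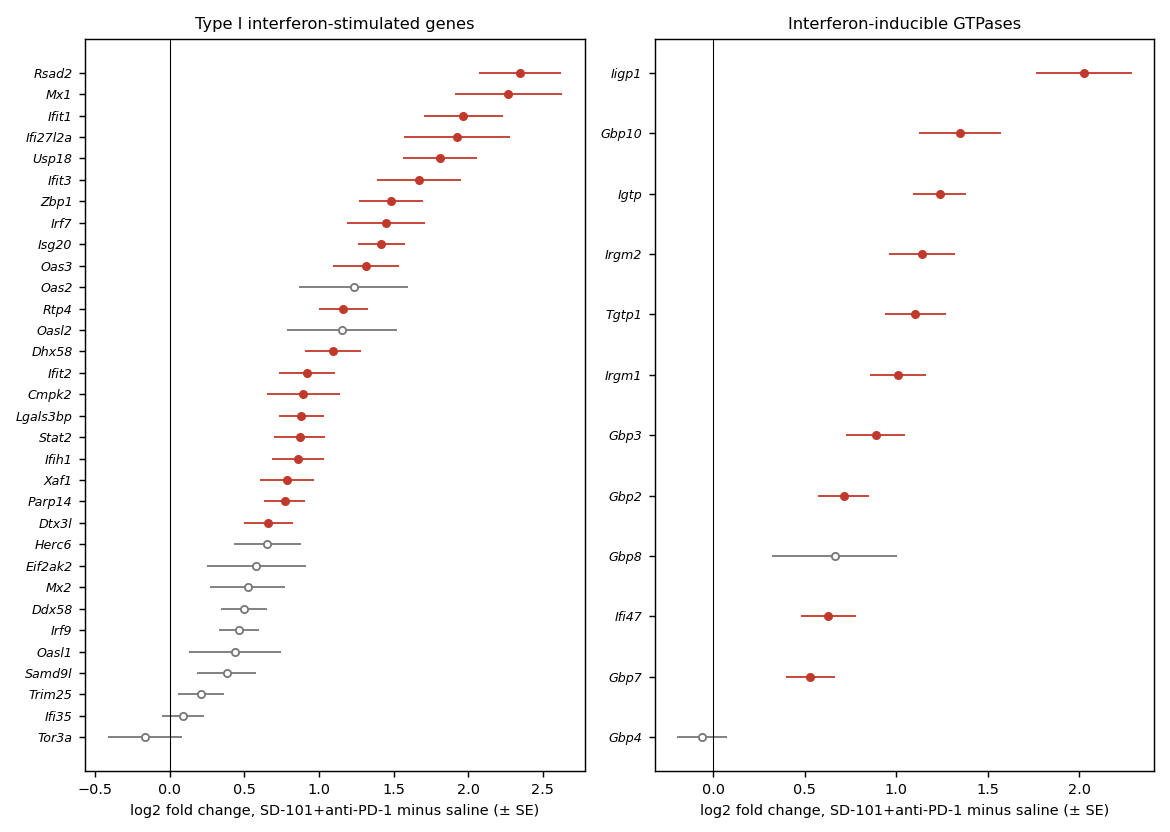
Log2 fold change of SD-101+anti-PD-1 minus saline for each of the 32 type I interferon-stimulated genes and the 12 interferon-inducible GTPase genes (points, bars ± SE of the limma fit, 5 against 5 arrays). Filled red points are the 20 and 10 members with an adjusted p under 0.05, from Rsad2 (2.35) and Iigp1 (2.03) at the top, and open grey points are the members that did not pass.

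Set against SD-101 alone, a comparison that shares the 5 combination arrays and in which 4.77% of all genes passed (3.52% higher, 1.25% lower), 2 of the 32 interferon-stimulated genes were higher. These were Ifit1 (0.92 ± 0.25, SE; adjusted p = 0.0450) and Isg20 (0.54 ± 0.15, SE; adjusted p = 0.0452), and the list's median difference was 0.21. Rsad2 was 0.71 ± 0.26 above SD-101 (adjusted p = 0.133) and Igtp 0.29 ± 0.14 (adjusted p = 0.273), and no GTPase gene passed. In that comparison 816 genes passed, and 2 passed with the 18S value as a covariate. The 18S value was 10.86 to 11.34 on the SD-101 arrays and 11.45 to 11.98 on the combination arrays, without overlap. The fit with the 18S value as a covariate thus cannot tell its part from that of treatment. The part of 18S in the differences from SD-101, here and below, was not tested.

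A few antigen presentation genes rose, by smaller amounts. All 15 measured genes of the class I pathway had positive values, with a median of 0.30, and 4 rose (3.47% of all genes did). Psmb8, a catalytic subunit of the immunoproteasome, was at 11.20, 11.02, 11.23, 11.10 and 11.31 against 10.62, 10.78, 10.81, 10.85 and 10.80, a rise of 0.40 ± 0.09 (SE; adjusted p = 0.00997). Its companion subunit Psmb9 rose by 0.53, the proteasome activator Psme2 by 0.35 and the peptide editor Tapbpl by 0.64. H2-K1, the class I heavy chain gene, differed by 0.19 without overlap and did not pass. The count of 4 was 2 without combination array 3, combination array 4 or saline array 4, and 1 against saline arrays 1 and 2 alone, without them or with the 18S value as a covariate. With each array centred over the genes it was 0.

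Class II genes, which mouse T cells do not normally express and which mark B cells, dendritic cells and some epithelium, had a median of 0.81 over 11 members, and 3 rose. Over all genes 3.47% did. H2-Aa was at 11.57, 11.12, 10.82, 11.33 and 10.78 against 10.30, 10.76, 9.65, 9.51 and 8.51, and rose by 1.38 ± 0.36 (SE; adjusted p = 0.0276). Cd74, the invariant chain, rose by 1.30 and the peptide loader H2-DMa by 0.65. These calls rested on single arrays: 5 members rose without saline array 2, 1 without combination array 3 and none without combination array 1, 2 or 4 or saline array 3, 4 or 5. None rose against saline arrays 1 and 2 alone, and 5 rose and 1 fell without them.

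Among genes of T cell function 4 of 18 cytotoxic granule genes rose (3.47% of all genes did), and 1 or none in each of the other lists. Gzmb, the granzyme that starts apoptosis in target cells, was at 10.05, 10.18, 11.19, 10.12 and 10.45 on the combination arrays and at 8.11, 9.43, 8.65, 8.43 and 6.89 on the saline arrays. Gzmk, a granzyme of circulating and tissue memory cells, was at 9.47, 9.61, 10.56, 9.76 and 10.04 against 7.52, 8.61, 8.10, 7.89 and 7.93. Combination array 3 was the highest array for both, and neither gene overlapped with saline. Gzmb rose by 2.09 ± 0.41 (SE; adjusted p = 0.00390) and Gzmk by 1.88 ± 0.30 (SE; adjusted p = 0.000854). Against saline arrays 1 and 2 alone the values were 1.62 (adjusted p = 0.154) and 1.83 (adjusted p = 0.0726).

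The other cytotoxic members that rose were the genes of the granzyme inhibitors Serpinb9 (0.89) and Serpinb6b (1.28), which protect the killer cell from its own granules. The list's median was 0.23, and 2 rose without saline array 3, 4 or 5. None rose against saline arrays 1 and 2 alone (median 0.30), and 4 rose without them (0.09). Prf1, which encodes the pore protein perforin, was at 7.43, 7.75, 7.84, 7.64 and 7.92 against 5.81, 7.20, 7.41, 7.09 and 8.32, and did not pass (0.55, adjusted p = 0.514). Gzma (0.69) and Nkg7 (0.53) did not pass either, and 5 of the 18 values were negative.

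Lag3, an inhibitory receptor that binds class II molecules, was at 6.88, 7.10, 7.55, 7.04 and 7.28 against 5.10, 5.94, 5.13, 5.69 and 4.77, and rose by 1.84 ± 0.47 (SE; adjusted p = 0.0251). It was the single member to rise of 14 inhibitory receptor genes, whose median was 0.26, and its call ended without combination array 3 or 4 or saline array 3 or 5. Without saline array 2 there were 2 such members. Pdcd1, the gene of PD-1, was at 7.16, 7.64, 7.91, 7.23 and 7.33 against 5.90, 6.92, 4.90, 6.73 and 5.99. The groups did not overlap on Pdcd1, but the difference of 1.36 ± 0.44 (SE) had an adjusted p of 0.0787. Cd274, the gene of the ligand PD-L1, differed by 0.76 ± 0.23 (SE; adjusted p = 0.0672) with overlap.

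Tbx21, the gene of the factor T-bet that directs effector differentiation, was at 7.10, 7.15, 7.80, 7.23 and 7.45 against 5.46, 6.48, 6.47, 5.65 and 5.90. It rose by 1.35 ± 0.33 (SE; adjusted p = 0.0173) and was the single member to rise of 16 effector factors. The call ended without combination array 3 or saline array 4, and 2 members rose without saline array 5. Klrk1, which encodes the activating receptor NKG2D, rose by 1.49 ± 0.34 (SE; adjusted p = 0.0115), alone among 10 NK-type receptor genes. The costimulatory ligand Tnfsf4 (OX40L) rose by 1.05, alone among 16 genes of PD-1 ligands and costimulation, and lost its call in 9 of 10 fits with 1 array left out, all but that without saline array 2. No member of these 4 lists rose against saline arrays 1 and 2 alone, where Lag3 differed by 1.65 (adjusted p = 0.326), Tbx21 by 1.38 (adjusted p = 0.222) and Klrk1 by 1.51 (adjusted p = 0.210). Without these arrays 1 rose in each list but that of costimulation, where none did, and 1 inhibitory receptor gene fell. A single member risen of 10 to 16 is to be read against the 3.47% of all genes that rose. No effector cytokine or death ligand gene of 11 passed, and Ifng was 0.52 ± 0.50 (SE; adjusted p = 0.660) above saline.

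Compared with SD-101 alone 3.52% of all genes were higher and 1.25% lower, and 2 genes in all passed with the 18S value as a covariate. No member of the cytotoxic (18 genes), inhibitory (14), costimulation (16), NK-type (10) and effector factor (16) lists was higher, and 2 were lower. These were Ncr1 (-1.77, adjusted p = 0.0144), which encodes an activating receptor of NK cells, and the granzyme gene Gzmc (-0.87, adjusted p = 0.0343), the latter at 3.13 to 3.62 on the combination arrays. The T cell genes described above did not pass against SD-101, with differences for Gzmb of 0.21 ± 0.39, Lag3 of 0.09 ± 0.45, Tbx21 of 0.09 ± 0.31, Klrk1 of 0.10 ± 0.32 and Pdcd1 of 0.20 ± 0.42 (SE) and adjusted p from 0.846 to 0.951. Gzmk was 0.77 ± 0.29 above SD-101 (SE; adjusted p = 0.142). These values do not show that the regimens acted alike. With the 18S value as a covariate no member of the class II, cytotoxic, inhibitory, effector factor, NK-type, costimulation, chemokine or chemokine receptor lists rose, and none of the memory or residency lists below fell. The identity genes of the T cell receptor complex gave no called member of 15, with a median of 0.19, which was 0.53 against saline arrays 1 and 2 alone and -0.03 without them. None of 12 CD4 and regulatory T cell markers passed, with a median of -0.02.

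Proliferation genes gave 1 call in each list, to be read against the 3.47% of all genes that rose. Mki67, the Ki-67 gene, was the single one of 20 mitosis genes to rise. All 20 had positive values (9664 of all 17097 genes did), with a median of 0.53, but the list's mean level overlapped, at 6.59 to 7.42 on the combination and 5.42 to 7.50 on the saline arrays. Its levels were 8.19, 8.58, 8.81, 8.25 and 8.53 against 8.20, 7.49, 6.57, 7.89 and 7.80, so saline array 1 lay among the combination arrays. The rise of 0.88 ± 0.25 (SE; adjusted p = 0.0473) lost its call in 9 of 10 fits with 1 array left out. Of 25 replication genes the single rise was Ccne1 (0.91, adjusted p = 0.0265), the cyclin that starts DNA synthesis, and its call ended in 5 of 10 such fits. That list's median was 0.11. Neither list had a call against saline arrays 1 and 2 alone, with medians of 0.44 and 0.26, and each had 1 without them. No gene of 16 in glycolysis or of 27 in oxidative phosphorylation passed, with medians of -0.10 and 0.07. Hmgcs1, which makes a precursor of cholesterol, was the single member to fall of 16 cholesterol synthesis genes (-0.52, adjusted p = 0.0283). It was at 2.51 to 3.07 against 3.004 to 3.71, near the low end of the scale, and lost its call without combination array 1, 2 or 3 or saline array 2 or 3.

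Of 14 genes of memory, quiescence and egress 4 fell, none rose and 10 did not pass, where 2.15% of all genes fell. S1pr1 was at 6.88, 6.76, 6.83, 7.08 and 7.29 on the combination arrays and at 8.16, 7.69, 8.85, 8.55 and 8.25 on the saline arrays. It fell by 1.33 on the log2 scale (SE 0.24, adjusted p = 0.00234), with every combination array below every saline array. Klf2, the factor that drives S1pr1, was at 10.19, 10.10, 10.02, 10.27 and 10.71 against 10.75, 10.78, 11.64, 11.62 and 11.37. It fell by 0.97 (SE 0.24, adjusted p = 0.0197), and combination array 5 lay just under the lowest saline array. Both genes were also lower than with SD-101 alone, by -0.89 ± 0.23 (SE; adjusted p = 0.0346) for S1pr1 and -0.88 ± 0.23 (SE; adjusted p = 0.0344) for Klf2. Only 2 of all genes passed against SD-101 with the 18S value as a covariate, which cannot be told apart from treatment there.

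Id3, a memory-associated inhibitor of E proteins, fell by 1.06 and Klf3 by 0.53, and the list's median was -0.32. The count was 2 without combination array 1 or 4, 1 without combination array 3 or saline array 3 or 4, and 0 against saline arrays 1 and 2 alone, where S1pr1 differed by -0.96 (adjusted p = 0.204) and Klf2 by -0.51 (adjusted p = 0.523). Without these arrays 4 fell and 1 rose. S1pr1 and Klf2 are also expressed by endothelial cells, whose genes moved the same way (below), and the part of that cell type in these values was not tested. Of 11 residency genes Rgs2, a regulator of G protein signalling, was the single member to fall (-1.22, adjusted p = 0.0250). This is to be read against the 2.15% of all genes that fell. Cd69, the surface protein that opposes S1PR1, was at 8.48, 8.03, 8.64, 8.16 and 8.92 against 9.01, 9.05, 10.69, 10.35 and 10.38, all lower without passing (-1.45, adjusted p = 0.0939). The residency count was 4 without saline array 2, and 0 without combination array 1, 2 or 3 or saline array 3, 4 or 5. Against saline arrays 1 and 2 alone none fell, and without them 4 fell and 1 rose.

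Cxcr3, the receptor by which effector T cells follow interferon-induced chemokines, was at 9.16, 9.11, 9.95, 9.52 and 9.84 against 7.51, 8.74, 8.01, 7.54 and 8.54. It rose by 1.45 ± 0.30 (SE; adjusted p = 0.00549). It was the single one of 12 chemokine receptor genes to pass (3.47% of all genes rose), or 1 of 3 without saline array 2. Against saline arrays 1 and 2 alone it differed by 1.39 (adjusted p = 0.142). Its ligand genes Cxcl9 (0.66, adjusted p = 0.564) and Cxcl10 (1.27, adjusted p = 0.0936) did not pass. Of 27 chemokine ligand genes 3 rose, where 3.47% of all genes did. These were Cxcl17 (3.36), a product of airway epithelium, Cxcl14 (2.09), made by epithelium and stroma, and Ccl5 (0.77), made by T cells. The count was 6 without saline array 2, 0 against saline arrays 1 and 2 alone and 6, with 1 fall, without both, and the list's median was 0.58. Ccl5 was at 11.89, 11.999, 12.33, 12.05 and 12.17 against 11.05, 11.57, 11.58, 11.28 and 11.08, and lost its call in 9 of 10 fits with 1 array left out.

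**Figure D3:**
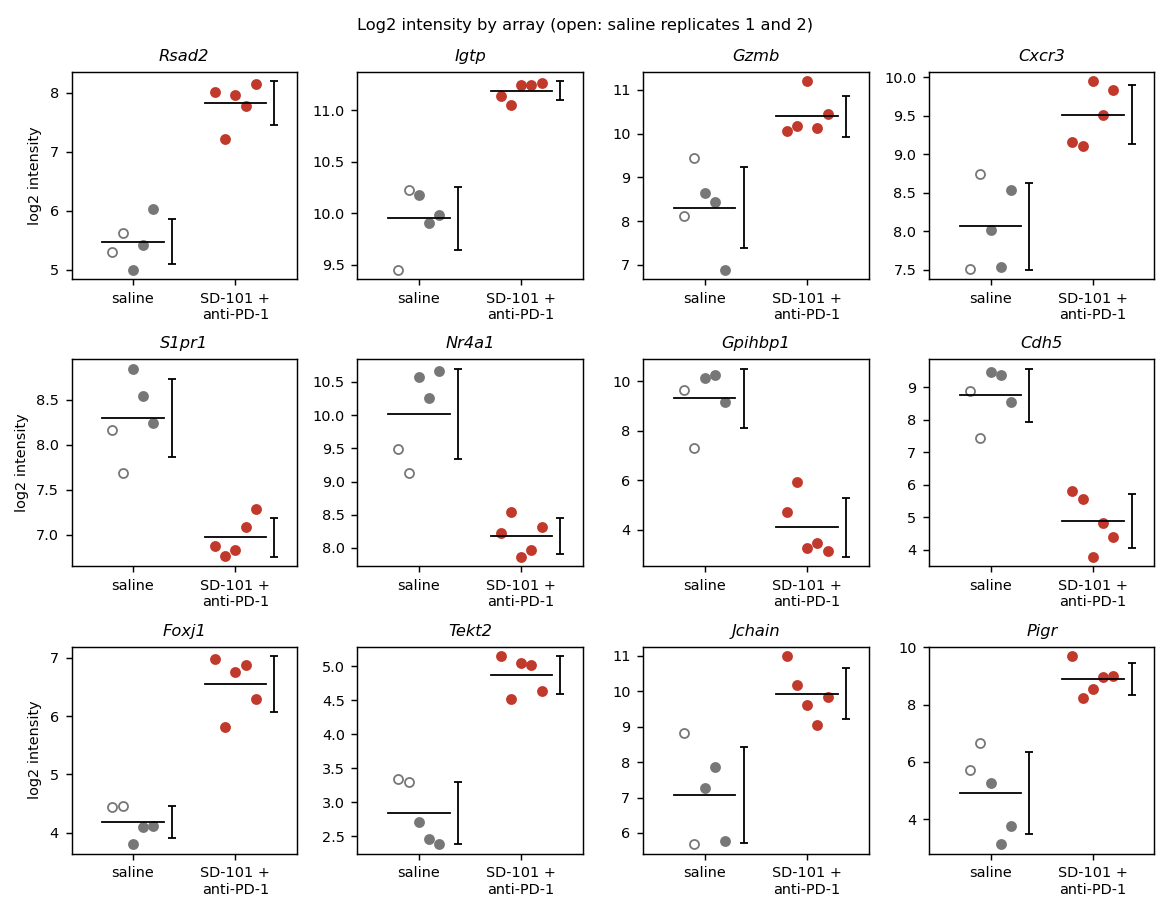
Log2 intensity of 12 genes on each of the 5 saline and 5 combination arrays (1 point per array, horizontal line the group mean, vertical bar ± SD, open circles saline arrays 1 and 2; each panel has its own axis). The groups do not overlap on any of the 12. On S1pr1, Nr4a1, Gpihbp1 and Cdh5, which fell, the lowest saline array is 1 of the open circles.

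Immediate early genes, which antigen receptor and stress signals switch on without new protein synthesis, fell in many cases. Of 26 measured members 14 fell (2.15% of all genes did) and none rose, with a median of -1.05. Nr4a1, a nuclear receptor gene induced by antigen receptor signals, was at 8.22, 8.54, 7.86, 7.97 and 8.32 on the combination arrays and at 9.49, 9.13, 10.57, 10.25 and 10.66 on the saline arrays. Klf4, a factor of quiescent cells that is also expressed in endothelium, was at 7.67, 7.85, 7.23, 7.33 and 7.49 against 9.67, 8.54, 10.10, 10.28 and 9.90. In both genes saline array 2 was the nearest to the combination arrays and no groups overlapped. Nr4a1 fell by 1.84 (SE 0.36, adjusted p = 0.00427) and Klf4 fell by 2.18 (SE 0.28, adjusted p = 0.000205).

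Fos was at 11.96, 11.85, 11.72, 11.85 and 11.997 against 12.37, 12.36, 12.70, 12.64 and 12.61, a smaller fall of 0.66 (SE 0.12, adjusted p = 0.00271). Fosb (-2.19), Atf3 (-2.67), Junb (-1.25), Egr1 (-1.33) and the phosphatase gene Dusp1 (-1.31) were further members that fell. Egr2 (-0.08) and Egr3 (0.10), the factors induced by strong T cell receptor signals, did not pass. The mean level of the list was 8.97 and 8.69 on saline arrays 1 and 2, 9.57, 9.70 and 9.47 on saline arrays 3 to 5 and 8.04 to 8.48 on the combination arrays. The saline arrays with high 18S values thus lay between the other saline arrays and the combination arrays. With saline arrays 1 and 2 alone 1 member fell and the median was -0.58, and with the 18S value as a covariate 1 fell. Compared with SD-101 alone 10 members were lower (1.25% of all genes), and the list's median difference was -0.75. The list's mean level was 8.30 and 8.49 on SD-101 arrays 1 and 2 and 9.25 to 9.43 on SD-101 arrays 3 to 6. None of 13 heat shock chaperone genes passed (median -0.12), and Hspa1b overlapped, at 6.38 to 7.94 against 7.16 to 10.07. Per1, a clock gene that also responds to acute signals, fell by 1.11 (adjusted p = 0.0251), alone among 14 clock genes, and lost its call in 6 of 10 fits with 1 array left out.

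Genes of endothelial cells, which line the vessels, fell the most. Of 27 pan-endothelial genes 25 fell (2.15% of all genes did) and 2 did not pass, with a median of -3.28. Cdh5, which encodes VE-cadherin of the junctions between endothelial cells, was at 5.81, 5.56, 3.77, 4.82 and 4.40 on the combination arrays and at 8.89, 7.45, 9.47, 9.38 and 8.53 on the saline arrays, a fall of 3.87 (SE 0.50, adjusted p = 0.000205). Pecam1 was at 6.99, 6.97, 6.00, 6.55 and 6.74 against 9.18, 8.18, 10.13, 9.86 and 9.26, a fall of 2.67 (SE 0.38, adjusted p = 0.000406). Combination arrays 1 and 2 were the highest of their group for both genes and saline array 2 the lowest of its own, without overlap. The angiopoietin receptor gene Tek (-4.46), the transcription factor genes Sox17 (-3.94), Sox18 (-3.48), Sox7 (-3.82) and Erg (-2.76), and Vwf (-3.49), the gene of von Willebrand factor, fell alike. Flt4 (-0.06) and Ramp2 (-0.25) did not pass, and Flt4 was near 3 on every array.

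Genes of capillaries and arteries fell too, where 2.15% of all genes did. Among 8 capillary genes 6 fell, with a median of -3.14, led by Gpihbp1, which holds lipoprotein lipase on the capillary wall. Its levels were 4.70, 5.92, 3.24, 3.45 and 3.16 against 9.66, 7.30, 10.13, 10.24 and 9.17, and its fall of 5.21 (SE 0.69, adjusted p = 0.000253) put it first among the falls. Combination arrays 3 to 5 lay below the array medians on Gpihbp1, so the size of this fall and its rank are uncertain. Aplnr, the apelin receptor gene of general capillary cells, was at 4.26, 4.64, 2.88, 2.69 and 3.001 against 8.08, 6.85, 9.36, 9.60 and 8.72, with the same arrays below the array medians. Car4 and Ednrb, which mark the large alveolar capillary cells called aerocytes, fell by 3.15 and 3.13. Capillary genes of both kinds were thus lower on every combination array.

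Of 7 arterial genes 5 fell, with a median of -3.06, among them Sema3g (-4.18), Hey1 (-3.64), a target of Notch signalling, and Efnb2 (-3.32). Slc6a2, a noradrenaline transporter gene of venous endothelium, was the single venous member of 4 to fall (-3.24), with 2 lower without combination array 3 and 3 without saline array 2. Lyve1 (-3.92), which lymphatic and some capillary endothelium express, fell, while the lymphatic factor gene Prox1 (-0.14) was at 2.33 to 3.01 on all 10 arrays and did not pass. In bulk samples such as these, fewer cells of a type and less RNA per cell cannot be told apart.

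Against saline arrays 1 and 2 alone the medians were -2.49 for the pan-endothelial, -2.97 for the capillary and -2.13 for the arterial list, and 6, 4 and 0 members fell. With saline arrays 1 and 2 left out 25, 7 and 5 fell, with medians of -3.55, -3.25 and -3.69. With the 18S value as a covariate 8 pan-endothelial genes and no arterial gene fell. The mean level of the pan-endothelial list was 5.78, 5.67, 5.07, 5.48 and 5.21 on the combination arrays and 8.05, 7.06, 9.01, 8.85 and 8.11 on the saline arrays. The SD-101 arrays lay between 6.34 and 8.36, and 22 of the 27 genes were lower with the combination than with SD-101 alone (1.25% of all genes). Every SD-101 array had a lower 18S value than every combination array, so 18S and treatment cannot be told apart there. With that value as a covariate 2 of all genes passed against SD-101. Kit (-1.76) and Gata2 (-2.52), the single called members of 13 mast cell genes, fell too. Both are also expressed by endothelial cells, and the mast cell proteases Cma1 (-0.42) and Cpa3 (-0.91) did not pass. Compared with SD-101 alone 7 mast cell genes were lower, among them Cma1 (-2.99) and Cpa3 (-2.48). No mast cell gene fell against saline arrays 1 and 2 alone, and 3 fell and 1 rose without them.

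Genes of motile cilia, which beat on the airway surface, rose together. Of 35 measured genes of the axoneme, the microtubule core of the cilium, 29 rose (3.47% of all genes did) and none fell, with a median of 1.51. Tekt2, a tektin of the doublet microtubules, was at 5.14, 4.52, 5.05, 5.01 and 4.64 on the combination arrays and at 3.34, 3.30, 2.71, 2.46 and 2.39 on the saline arrays. The rise of 2.03 ± 0.20 (SE) had an adjusted p of 9.92e-05, and the groups lay more than 1 log2 unit apart. All 5 saline arrays lay below the array medians on Tekt2, as the list's mean did on 4 of them, so the direction is firmer than the size. Dnah6, a dynein heavy chain gene, was at 5.82, 5.11, 5.97, 6.66 and 5.33 against 4.07, 4.09, 3.40, 3.36 and 3.49. The radial spoke gene Rsph1 (2.89), the dynein light chain gene Dnali1 (2.31) and Cfap126 (3.13) rose further, and Hydin, of the central pair, by 0.77.

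Foxj1, the factor that switches on the motile cilium programme, was at 6.98, 5.82, 6.76, 6.88 and 6.30 against 4.44, 4.46, 3.804, 4.11 and 4.11. It rose by 2.36 ± 0.26 (SE; adjusted p = 0.000178), and by 2.10 against saline arrays 1 and 2 alone (adjusted p = 0.0246). Tmem212, Ccdc153 and Cdhr3, which mark ciliated airway cells, rose by 3.62, 3.85 and 1.25, so 4 of 8 identity genes rose, while the Rfx3 factor gene (0.02) did not pass. Cdhr3 lost its call in 5 of 10 fits with 1 array left out. Combination arrays 2 and 5 were the lowest of their group for nearly every ciliary gene named, with list means of 4.27 and 4.40 against 4.88 to 5.06 on the other combination arrays.

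Saline arrays 1 and 2 had the highest ciliary means of the saline group, 3.55 and 3.70 against 3.15 to 3.20. Against them alone 4 axoneme genes rose, with a median of 1.19, and without them 28 rose, with a median of 1.64. With the 18S value as a covariate 5 rose. Of the axoneme genes 29 were also higher than with SD-101 alone (3.52% of all genes), where Tekt2 differed by 1.82 ± 0.19 (SE; adjusted p = 0.000137) and Foxj1 by 2.01 ± 0.25 (SE; adjusted p = 0.000398). The SD-101 arrays had ciliary means of 3.19 to 3.89, so the combination arrays lay above every saline and every SD-101 array. They also lay above every SD-101 array in 18S value, so 18S and treatment cannot be told apart there. With that value as a covariate 2 of all genes passed against SD-101. The endothelial and ciliary lists were drawn up with this pattern known, and their counts are no independent evidence of its direction.

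Some other genes of airway lining rose, but their list median against saline arrays 1 and 2 alone was smaller than that of the axoneme genes. Pigr, which carries antibody across epithelium into secretions, was at 9.69, 8.23, 8.54, 8.97 and 8.99 against 5.73, 6.66, 5.27, 3.13 and 3.78, and rose by 3.97 ± 0.76 (SE; adjusted p = 0.00329). Slc26a4, the anion exchanger pendrin, rose by 3.48, Cxcl17 by 3.36 and Muc20 by 1.56. This gave 4 of 19 airway secretory genes (3.47% of all genes rose), with a median of 1.41. The club cell gene Scgb1a1 was at 12.65 to 12.95 against 9.88 to 12.63, without overlap and without passing (1.56, adjusted p = 0.167). Saline arrays 1 and 2, at 12.49 and 12.63, were close to the combination arrays for Scgb1a1. None of the 19 rose against saline arrays 1 and 2 alone, where the median was 0.53, and 9 rose without them. With the 18S value as a covariate 1 fibroblast gene and none of the airway secretory, epithelial, plasma cell or B cell genes rose.

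None of 14 alveolar epithelial genes passed, with a median of 0.73. The list's mean level was 9.76 and 9.96 on saline arrays 1 and 2, 8.73, 8.004 and 8.15 on saline arrays 3 to 5 and 9.38 to 9.97 on the combination arrays. Its median was thus -0.13 against saline arrays 1 and 2 alone, and 1.53 with 11 members risen without them. Ciliary genes, in contrast, had positive medians of 1.19 and 1.64 under the same choices. The difference between these lists was not tested.

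Of 16 epithelial and carcinoma genes 3 rose, with a median of 0.92: Cldn7 (1.51), a claudin of tight junctions, Elf3 (1.40), an epithelial factor, and Esrp1 (1.64), an epithelial splicing factor. The count was 0 without combination array 1 or saline array 3, 1 without combination array 4 or saline array 4, 6 without saline array 1 and 8 without saline array 2. None rose against saline arrays 1 and 2 alone, and 9 rose without them. Fibroblast and matrix genes rose in 7 of 22 cases, with a median of 1.13. The counts of both lists stand against 3.47% of all genes. Eln, the elastin gene, was at 8.57, 8.95, 9.14, 8.90 and 8.16 against 7.03, 7.34, 6.74, 6.14 and 6.07, and rose by 2.08 ± 0.29 (SE; adjusted p = 0.000309). The collagen genes Col1a1 (2.29) and Col6a3 (1.93) and the microfibril gene Mfap4 (2.12) rose as well. The count of 7 was 11 without saline array 2 and 4 without combination array 1, 2 or 4 or saline array 3, 4 or 5. It was 0 against saline arrays 1 and 2 alone, with a median of 0.22, and 13 without them, with a median of 1.78.

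**Figure D4:**
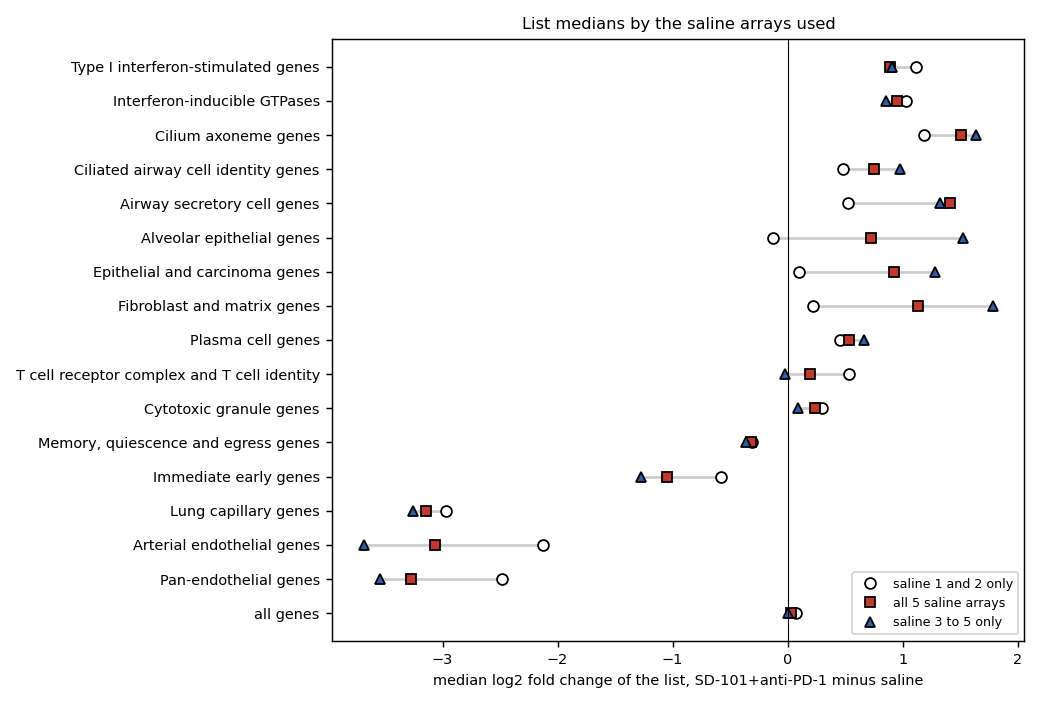
Median log2 fold change, SD-101+anti-PD-1 minus saline, of 16 gene lists and of all 17097 genes, against all 5 saline arrays (red squares), saline arrays 1 and 2 alone (open circles) and saline arrays 3 to 5 alone (blue triangles). The 3 symbols lie close together for the interferon-stimulated genes (0.89, 1.11 and 0.90) and far apart for the alveolar genes (0.73, -0.13 and 1.53).

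Some antibody genes rose too, where 3.47% of all genes did. Jchain, the joining chain of secreted IgM and IgA, was at 10.999, 10.18, 9.60, 9.05 and 9.85 against 8.82, 5.68, 7.28, 7.85 and 5.78, a rise of 2.85 ± 0.62 (SE; adjusted p = 0.00880). Ighm rose by 2.76 ± 0.67 (SE; adjusted p = 0.0178) with saline array 1 (6.67) above combination array 4 (6.15). These were 2 of 10 plasma cell genes, 1 of which rose without combination array 2 or saline array 3 or 5. Neither plasma cell nor B cell genes had a call against saline arrays 1 and 2 alone, and 2 of each list rose without them. Of 22 immunoglobulin and T cell receptor segments measured 8 rose and none fell, and all 8, Ighm among them, were immunoglobulin genes. Fcer2a (1.69), the low-affinity IgE receptor CD23, and Vpreb3 (0.66) rose among 14 B cell genes, and 1 did so without combination array 1 or 4 or saline array 3 or 4. The general B cell genes Ms4a1 (0.20) and Cd79a (0.25) did not pass. Jchain differed from SD-101 alone by -0.64 ± 0.59 (SE; adjusted p = 0.654).

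Lists of other white cells gave single calls or none, to be read against the 3.47% of all genes that rose and the 2.15% that fell. None of 12 neutrophil genes and none of 7 dendritic cell genes passed, with medians of -0.36 and -0.11. The neutrophil median was -2.26 against saline arrays 1 and 2 alone and 0.85 without them. Mertk (-1.66), a receptor for dying cells, was the single called member of 21 macrophage and monocyte genes and lost its call in 8 of 10 fits with 1 array left out. Sox13 (-1.39) was the single one of 4 gamma-delta and IL-17 markers to fall, with combination arrays at 3.63 to 4.54 and saline arrays at 4.49 to 6.13. Tlr9 itself was at 2.61 to 2.89 against 2.72 to 3.14 and did not pass, and of 17 genes of TLR9 sensing and signalling Irf7 alone rose, or 2 without saline array 2.

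The 12 genes with the largest rises and the 12 with the largest falls came from only some of these lists, or from none. Among the rises Tmem212, Ccdc153, Cfap126 and Rsph1 were members of the ciliary lists, Pigr, Slc26a4 and Cxcl17 of the airway secretory list and Jchain of the plasma cell list. The rest were AU040972 (4.69), Ly6i (3.85), a Ly6 family surface protein gene, Vnn1 (2.97), which encodes a pantetheinase, and Nme5 (2.79), whose product belongs to ciliary radial spokes. AU040972, which had the largest rise, was at 9.68, 8.71, 9.73, 9.80 and 9.03 against 5.51, 6.46, 3.85, 3.95 and 3.70, and Ly6i was at 9.55, 8.19, 7.74, 8.59 and 8.83 against 4.57, 5.25, 4.93, 4.36 and 4.53. Ly6i kept its value against saline arrays 1 and 2 alone (3.67, adjusted p = 0.0487), where AU040972 was 3.40 higher (adjusted p = 0.141).

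Among the falls Gpihbp1, Aplnr and Plvap belonged to the capillary list, Clec14a, Tek and Sox17 to the pan-endothelial, Sema3g to the arterial and Lyve1 to the lymphatic list. The rest were Clec1a (-4.34), a lectin gene, Acer2 (-4.04), a ceramidase gene, Gpr182 (-3.96), a receptor gene of endothelium, and BC028528 (-3.95). All 12 were below every saline array on all 5 combination arrays. Of genes that passed both against saline and against SD-101, the largest rises over SD-101 were AU040972 (3.63), Tmem212 (3.40), Ccdc153 (3.09), Pifo (2.80), Cfap126 (2.72) and Ak7 (2.65). Pifo and Ak7 are also genes of cilia. The largest falls below SD-101 were of Aplnr (-4.50), Gpihbp1 (-4.26), Tek (-3.62), Sox17 (-3.58), Clec1a (-3.56) and Plvap (-3.54). Only 2 of all genes passed against SD-101 with the 18S value as a covariate, which cannot be told apart from treatment there. Predicted and small RNA genes, left out of these names, rose in 24 and fell in 8 of 1576 cases.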

How the data were processed

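The authors deposited log2 expression values per Affymetrix probe set. Per the submitters' processing notes the tools were affy, RMA and limma and the build mm8, without versions or roles. Further normalization was not applied, and arrays carry no read depth, so their number limits the precision. Of 45141 probe sets, 28898 had 1 gene symbol, 551 had several and 15692, with 104 controls, had none listed; for 7180 of 17097 genes the brightest of several probe sets was used.

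All 4 groups (20 arrays) were fitted as group means in limma 3.58.1 (R 4.3.3), tested on simulated data first, with 2-sided moderated tests and Benjamini-Hochberg adjustment over all genes. Genes were called at an adjusted p under 0.05, and no filter on level was used. A list's mean level is the mean log2 value of its measured genes on an array.

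Named genes were the 12 largest called rises and falls, up to 6 called members of smallest p per list, genes fixed singly, and the 6 largest rises and falls called in both comparisons. Other list members are given as examples or ranges, some chosen after their values were seen. The members and the 46 lists were chosen with earlier results of these data known. Alternatives changed the choice of probe set, scaling, level filter, variance model, array weights, groups fitted, replicate block, covariates and each array in turn. Those on saline arrays 1 and 2, the 18S value and centring over genes were chosen after seeing the data.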

Additional observations from a re-analysis of the deposited data

Results flagged for a closer look

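In groups of 5 arrays, 6 of 238 gene tests and 5 of 92 list-mean tests had 1 array far from the rest of its group by Dixon's criterion, which chance gives in about 1 group in 20. Saline array 1 stood apart low on Ifng (6.74, other saline arrays 8.05 to 8.37) and Irgm1 (7.40), low on the mean of PD-1 ligands and costimulation genes (5.45), and high on that of neutrophil genes (9.75). Saline array 2 stood apart low on Dusp1 (11.36) and Per1 (6.83). Saline array 3 was low on the mean of oxidative phosphorylation genes (9.70), where the others lay within 9.74 to 9.75, and saline array 5 was high on that of gamma-delta and IL-17 T cell markers (7.13). Combination array 1 was high on Vnn1 (8.99) and H2-DMa (8.93), and combination array 3 low on the mean of lymphatic endothelial genes (3.55).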

How the results depend on the processing

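The rules for named genes picked 109 called genes. Some of them, such as Cfap54, are not printed here, and list members given as examples, such as Mx1 and Pecam1, are not among them. Of the 109, 79 stayed called under every alternative that tested them, those chosen after seeing the data aside. Whichever array was left out 80 stayed called, against saline arrays 1 and 2 alone 34 and without them 102. None changed direction under any alternative that tested it, the 3 scalings included. Genes of low level, such as Tekt2 and Hydin, were not tested with a mean level of at least 5. Such genes could still count among the 79, which therefore does not show that they passed there. The 962 calls against saline became 599 with a mean level of at least 5, 1953 with array weights, 1522 with the T cell identity score as a covariate, 2048 without saline arrays 1 and 2, 78 with these as the only saline arrays and 80 with the 18S value as a covariate, and 553 to 1531 with 1 array left out. The 594 rises became 299, 1283, 948, 1299, 60 and 59 under the same alternatives, 346 with arrays centred over the genes, and 347 to 994 with 1 array left out. The 368 falls became 670 with array weights, 574 with the T cell identity score, 749 without saline arrays 1 and 2, 18 with them alone, 21 with the 18S value and 206 to 537 with 1 array left out. The 816 calls against SD-101 became 424 with a mean level of at least 5, 2760 with array weights, 1332 with only these groups fitted, 444 with a covariate for heat shock genes, 2 with the 18S value and 317 to 1081 with 1 array left out. The cause was not tested, except that the level filter tests fewer genes (3 of 35 axoneme genes rose under it) and fewer arrays enter where some are left out.

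Replicate numbers are shared by the groups but gave no pairing: the deviations of same-numbered arrays correlated at 0.154, -0.033, -0.064, -0.127 and 0.515, and 1 of 5 combination arrays correlated best with its own number. With the replicate block 1075 genes were called, 612 higher and 463 lower.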
